A study of Mus musculus with 2 samples.

Results

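Heat shock proteins and their partners are the chaperones that fold new proteins and rescue damaged ones. A set of 10 such genes, all listed as cytosolic chaperones, was followed in B cells of the mouse heart: Hspa1a, Hspa1b, Hsph1, Dnajb1, Hsp90aa1, Hspa8, Hsp90ab1, Dnaja1, Hspd1 and Hspe1. These are 10 of the 31053 genes in the count tables, and the rule that lists them uses no measured level. The members were, however, chosen with earlier results of these data known. The list name does not hold for Hspd1 and Hspe1, which encode the HSP60 chaperonin and its HSP10 lid and act in mitochondria. Levels were read over droplets with at least 2000 gene UMIs, at most 10% of UMIs from mitochondrial genes and at least 1 UMI of Cd79a, a component of the B cell receptor. A UMI, or unique molecular identifier, marks 1 captured mRNA molecule.

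B cells were flow-sorted as live cells from the hearts of wild-type C57BL6/J mice. The neonatal library came from animals of 2 weeks, males and females pooled, and the adult library from males of 8 weeks, each library from 6 mice pooled. All hearts were minced and digested with enzymes by the same protocol, and both ages were sorted on the same day. Each age is 1 library, so the age, the pool of mice, the library and in part the sex cannot be told apart, and no test across samples was possible. All intervals are exact 95% intervals and cover counting error only.

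Of 779448 neonatal barcodes with any gene UMI, 2077 met the conditions, and of 983353 adult barcodes 3611 did. They held 16403180 and 34623240 UMIs, with medians of 6000 and 6131 UMIs per droplet. As a check of the B cell label with markers the rule did not use (Cd79b, Ms4a1 and Ighm), each droplet was thinned at random to 2000 UMIs, and at least 2 of the 3 were then present in 98.4% of neonatal and 97.5% of adult droplets. At least 2 of 6 macrophage markers were found in 16 neonatal and 12 adult droplets without thinning. The libraries shared 110 barcodes with at least 500 UMIs in both, and 61 neonatal and 45 adult droplets lay at them. Those 61 neonatal droplets held 12.6% of the neonatal UMIs, and the values of the scarce inducible HSP70 genes are given with and without them.

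Most cytosolic chaperones exist as a constitutive form, made in all cells at all times, and an inducible form, which heat shock factors switch on when unfolded protein accumulates. HSP70 binds exposed stretches of unfolded chains, J-domain proteins bring it clients and start its ATP cycle, nucleotide exchange factors release the client, and HSP90 completes the folding of kinases and receptors. In single-cell work the inducible genes are also known to respond to tissue digestion, together with immediate-early genes such as Fos. The inducible list held Hspa1a and Hspa1b (inducible HSP70), Hsph1 (HSP110, an exchange factor for HSP70), Dnajb1 (HSP40, a J-domain protein) and Hsp90aa1 (the more inducible HSP90). The constitutive list held Hspa8 (HSC70, the standing HSP70), Hsp90ab1 (the standing HSP90), Dnaja1 (a J-domain partner of HSC70), Hspd1 and Hspe1.

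Heat shock factors bind inverted repeats of the unit GAA, and the promoters of the members that respond to heat are known to carry them. The promoter table from RefSeq (GRCm38.p6, 250 bases before to 50 after a start) held 7 of the 10 members, all but Hspa8, Hsp90aa1 and Hsp90ab1. Hspa1a and Hspa1b are shown in full because they are neighboring copies whose transcripts stood at nearly the same level in both libraries. Each sequence is the 250 bases upstream of the start, 5′ to 3′ on the strand of the gene. The capitals mark GAANNTTC, a pair of inverted units. Hspa1a lies at chr17:34972157-34972406 and Hspa1b at chr17:34959239-34959488, both on the minus strand.
Hspa1a: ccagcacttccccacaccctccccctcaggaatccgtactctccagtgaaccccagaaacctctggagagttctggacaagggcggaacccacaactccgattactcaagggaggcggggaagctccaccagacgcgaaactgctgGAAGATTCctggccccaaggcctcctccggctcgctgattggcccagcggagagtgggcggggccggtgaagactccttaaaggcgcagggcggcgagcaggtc
Hspa1b: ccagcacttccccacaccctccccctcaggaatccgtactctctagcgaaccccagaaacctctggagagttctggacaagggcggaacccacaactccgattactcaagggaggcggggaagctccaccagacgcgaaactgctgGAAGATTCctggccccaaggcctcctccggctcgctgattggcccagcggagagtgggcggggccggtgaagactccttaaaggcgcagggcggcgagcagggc
The 2 stretches differed at 3 of 250 bases and were 98.8% identical, and the marked motif began 104 bases upstream of each start.

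Runs of 3 units, GAANNTTC followed by any 2 bases and GAA on either strand, were present in 198 of 32851 promoters of the table (0.603%). Among the members they were found for Hsph1, Hspd1 and Hspe1. The next windows show these matches and the pair of units of Dnaja1, with the matched letters in capitals. The Hsph1 window is at chr5:149636280-149636308 on the minus strand and lies just downstream of the start. A further pair of units, not shown, began 33 bases upstream of a listed Hsph1 start. Hspd1 and Hspe1 are transcribed away from each other from a shared region, so their windows are the same stretch, chr1:55088053-55088082, read on the minus strand for Hspd1 and on the plus strand for Hspe1, with overlapping matches. The Dnaja1 window is at chr4:40722336-40722359 on the plus strand, 124 bases upstream of only 1 of its listed starts. The other listed starts of Dnaja1, and the other listed start of Hspd1, had no match to the 3-unit motif or to a pair of units.
Hsph1: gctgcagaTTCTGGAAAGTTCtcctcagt
Hspe1: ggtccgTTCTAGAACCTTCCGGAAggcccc
Hspd1: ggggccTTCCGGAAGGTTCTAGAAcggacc
Dnaja1: agcctctaGAAAATTCtacgaggc
No match to the 3-unit motif or to a pair of units, GAANNTTC or TTCNNGAA, was in the 2 Dnajb1 windows, and a pair of units was in 15.1% of all promoters. A match says only that the letters are there.

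In both libraries the inducible members other than Hsp90aa1 were scarce and the constitutive members abundant. The 10 genes together held 0.496% of neonatal and 0.386% of adult UMIs. In neonatal B cells the order was Hspa8 (1652 UMIs per 1000000, CPM) and Hsp90ab1 (1637 CPM) at the top, then Hsp90aa1, Dnaja1, Hspe1, Hspd1, Dnajb1, Hsph1, Hspa1b and Hspa1a. The intervals of the first 2 and those of the last 2 overlapped, and no other neighbors in that order did. In adult B cells Hsp90ab1 led at 1640 CPM and Hspa8 followed at 1040 CPM, Hspe1 stood above Dnaja1, and the rest of the order was as in the neonatal library. The values count mRNA 3′ ends and are not scaled by gene length, since each molecule gives 1 end.

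**Figure D1:**
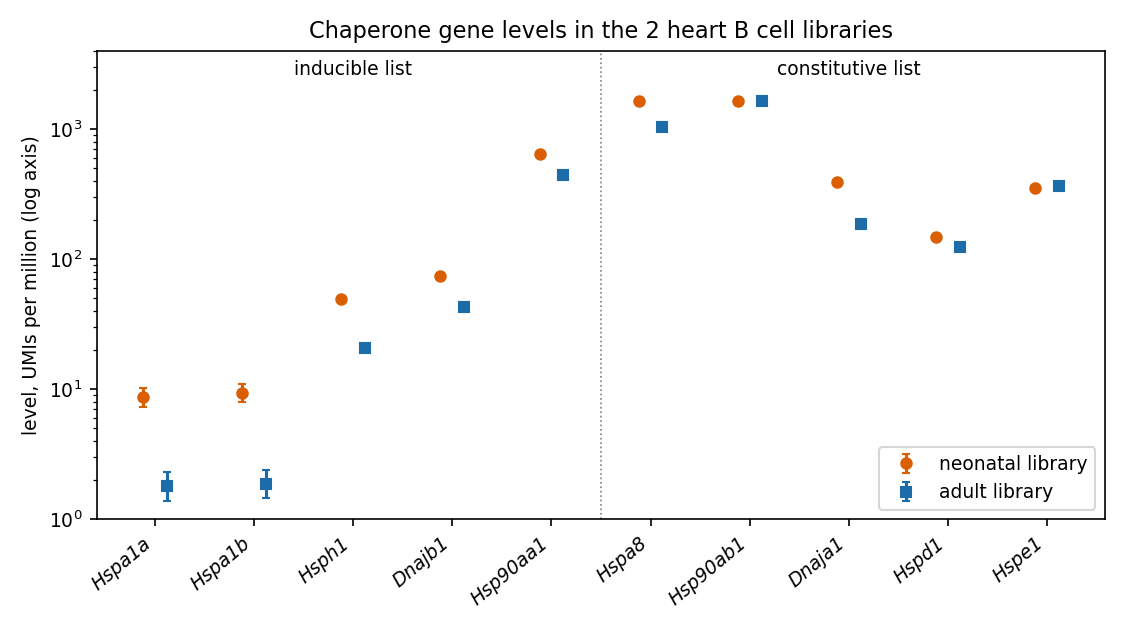
Level of each chaperone gene in CPM on a log axis, as circles for the neonatal and squares for the adult library, with exact 95% Poisson intervals of the counts, mostly smaller than the symbols. The neonatal value is above the adult one for all 5 inducible genes, and the 2 symbols lie at the same height for Hsp90ab1, at 1637 and 1640 CPM.

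Over summed UMIs, the inducible HSP70 genes showed the widest gap between the libraries. Hspa1a (ENSMUSG00000091971, chr17:34969190-34972156) stood at 8.66 CPM in the neonatal and 1.79 CPM in the adult library, from 142 and 62 UMIs. Its log2 ratio of adult over neonatal levels was -2.27 (-2.73 to -1.83). Hspa1b (ENSMUSG00000090877, chr17:34956436-34959238) stood at 9.39 and 1.88 CPM, a log2 ratio of -2.32 (-2.76 to -1.89). The copies lie 9951 bases apart, and none of the 50-base words in the last 500 bases of their transcripts is shared, so their 3′ counts can be separated. Each copy gave close to an equal part of the pair, with Hspa1a at 48.0% (42.2% to 53.8%) of their UMIs in the neonatal and 48.8% (39.9% to 57.8%) in the adult library. Added up, the pair had 18.0 CPM against 3.67 CPM, 4.92-fold higher in the neonatal library. With each droplet thinned to 2000 UMIs, a single random draw that keeps few UMIs of the pair, the log2 ratio was -0.88 (-1.89 to 0.13) for Hspa1a. That interval includes 0. For Hspa1b it was -1.55 (-2.54 to -0.61). As a mean over droplets of the share of UMIs, which weighs droplets equally without a random draw, the ratios were -1.54 and -1.82. Without the barcodes shared by the libraries, which held 36.6% of the neonatal UMIs of Hspa1a and 26.6% of those of Hspa1b, the ratios of summed UMIs were -1.79 (-2.29 to -1.29) and -2.11 (-2.60 to -1.64), and the pair was 3.89-fold higher in the neonatal library.

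The partners of inducible HSP70 followed in the same direction with smaller gaps. Hsph1, the exchange factor, stood at 49.0 CPM in neonatal and 20.7 CPM in adult cells, with a log2 ratio of -1.24 (-1.39 to -1.09). Dnajb1, the inducible J-domain protein, stood at 73.9 and 42.5 CPM, a log2 ratio of -0.80 (-0.91 to -0.69). Hsp90aa1 was the only inducible member under a 1.5-fold difference, at 642 and 441 CPM and a log2 ratio of -0.54 (-0.58 to -0.51).

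The constitutive members went several ways. Dnaja1 was more than 2 times higher in the neonatal library, with 389 against 185 CPM and a log2 ratio of -1.07 (-1.12 to -1.02). Hspa8, the standing HSP70, had 1652 against 1040 CPM, a log2 ratio of -0.67 (-0.69 to -0.64). Hsp90ab1 had a log2 ratio of 0.00 (-0.02 to 0.02) over summed UMIs. With each droplet thinned to 2000 UMIs it was -0.10 (-0.15 to -0.06). In the mitochondrial chaperonin, Hspd1 had 149 against 125 CPM (-0.25, from -0.33 to -0.18), and Hspe1 had 351 against 363 CPM (0.05, from 0.00 to 0.09).

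In all, 6 of the 10 members were at least 1.5-fold lower in the adult library, where 12.3% of the 10700 genes with at least 50 UMIs were. They were 4 of the 5 inducible and 2 of the 5 constitutive members. None was at least 1.5-fold higher, where 7.82% of all genes were. The median log2 ratio was -1.24 over the inducible and -0.25 over the constitutive members, beside -0.13 over all genes. Summed, the inducible list had 783 CPM in the neonatal and 507 CPM in the adult library (log2 ratio -0.63, from -0.66 to -0.59), and the constitutive list 4177 and 3353 CPM (-0.32, from -0.33 to -0.30). The inducible sum is 1.54-fold apart and is mostly Hsp90aa1. Without Hsp90aa1 it stood at 141 against 66.9 CPM, 2.11-fold higher in the neonatal library. With the libraries scaled by the median of all genes in place of the total, 5 members remained past 1.5-fold in that direction, and Hspa8 did not. With each droplet thinned to 2000 UMIs, Dnajb1 had a log2 ratio of -0.49, under 1.5-fold.

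Read within each library, inducible genes made up 15.8% of all chaperone UMIs in neonatal B cells (15.5% to 16.0%) and 13.1% in adult B cells (13.0% to 13.3%). Within the HSP90 pair, Hsp90aa1 gave 28.2% in neonatal and 21.2% in adult B cells. Hspa1a and Hspa1b gave 1.08% of the UMIs they share with Hspa8 in neonatal cells and 0.351% in adult cells, so even at 2 weeks nearly all HSP70 transcript was the constitutive one. The J-domain genes, which are not forms of the same protein, went the other way. Dnajb1 gave 16.0% (15.2% to 16.8%) of Dnajb1 plus Dnaja1 in the neonatal and 18.6% (17.8% to 19.5%) in the adult library. The genes of the inducible and constitutive lists therefore did not shift by a common factor.

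Some counts are uncertain because other genes hold near-copies. In the GENCODE annotation of GRCm38, 81.8% of the 50-base words in the last 500 bases of the Hspa8 transcript also occur in other annotated transcripts, those of 11 genes, Gm15459 first among them. For Hspe1 the share was 53.2%, for Hsp90ab1 7.76% and for the other 7 members 0. Reads that match more than 1 gene may have been dropped, so the levels of Hspa8 and Hspe1 may be too low. Hspd1 and Hspe1 overlap by 112 bases at their starts and are read on opposite strands.

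RNA outside cells was also measured. It was taken from the near-empty droplets at ranks 45000 to 90000 by UMIs and amounted to 55.9 UMIs per neonatal and 92.0 per adult droplet. Every member was present in it. Hspa1a had 10.3 free CPM against 8.66 CPM in the cells of the neonatal library, and 3.62 against 1.79 CPM in the adult library. Even so, free RNA would account for 0.504% to 0.850% of the members' UMIs in neonatal and 0.662% to 1.94% in adult droplets. No cell type lacks these chaperones, so the free level is the only background available.

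At an equal depth of 2000 UMIs, the members differed widely in how many droplets they were found in. Hspa8 was found in 92.6% of neonatal and 81.3% of adult droplets, and Hsp90ab1 in 91.0% and 89.6%. Hsp90aa1 was found in 63.8% against 53.8%, Dnaja1 in 51.6% against 30.6%, Hspe1 in 46.9% against 46.5% and Hspd1 in 22.8% against 18.6%. Dnajb1 was found in 11.8% against 8.78% of droplets and Hsph1 in 8.18% against 3.71%. Hspa1a was found in 16 neonatal droplets (0.770%) and 13 adult droplets (0.360%), and Hspa1b in 24 (1.16%) and 15 (0.415%). Free RNA alone would give a UMI in 3.24% of neonatal droplets for Hspa8 and in 0.0188% for Hspa1a. Before thinning, at the same median depth of about 6000 UMIs, Hspa1a was in 2.46% and 1.30% of droplets.

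Among the abundant members, counts varied between droplets by more than for most genes. The variance of the thinned counts over their mean (the Fano factor, 1 for pure counting) was 1.68 for Hspa8 and for Hsp90ab1 in neonatal B cells, 1.48 for Hsp90aa1 and 1.38 for Dnaja1. Its median was 1.05 over 4432 genes present in at least 5% of droplets, and its 95th percentile 1.36. In adult B cells the values were 1.34 for Hspa8, 1.81 for Hsp90ab1, 1.27 for Hsp90aa1 and 1.19 for Dnaja1, beside a 95th percentile of 1.29. For Hspa1a it was 1.41 and 1.88, on means near 0 that rest on a few droplets. The Fano factor can rise with the mean count, and the abundant members were not compared with genes of like level.

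Hspa1a or Hspa1b was present, before thinning, in 105 neonatal droplets (5.06%, from 4.15% to 6.09%) and 99 adult droplets (2.74%, from 2.23% to 3.33%), of which 68 and 87 had a single UMI. Droplets with 5 or more numbered 16 in the neonatal library, with 171 UMIs or 57.8% of the pair's total, and 2 in the adult library, with 14 UMIs. Without shared barcodes, 11 neonatal droplets with 98 UMIs and 2 adult droplets with 14 UMIs were counted. Over all droplets, a larger share was thus positive in the neonatal library, and positive droplets held more UMIs, 2.82 on average against 1.28 in adult B cells.

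Some of these droplets carried transcripts of other cells. The 16 neonatal droplets with at least 2 macrophage markers held 17.6% of the pair's UMIs, 192 CPM against 15.1 CPM in the others. Only 4 of the 16 had any, and 1 of these held 30 of the 52 UMIs. The 16 droplets also held 1106 of the 1123 UMIs of Lyz2 (lysozyme). Their Cd79a level was 1282 CPM beside 2711 CPM elsewhere. Summed over the 6 macrophage markers, the level was 90.4 CPM in the neonatal and 16.3 CPM in the adult library. After all droplets with 2 or more macrophage, neutrophil or T cell markers were left out (31 neonatal and 42 adult droplets), the pair stood at 14.5 CPM against 3.49 CPM. Of the 16 neonatal droplets with 5 or more UMIs, 3 were among those left out, and of the 2 adult ones, 1 was. The 12 adult droplets with at least 2 macrophage markers held 10 UMIs of the pair, in 5 droplets. Their level was 24.4 CPM against 3.42 CPM in the other adult droplets.

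Where inducible HSP70 was present, the other chaperones were higher too, most clearly in the neonatal library. Against droplets without a UMI of Hspa1a or Hspa1b, the level of Dnajb1 was 141 against 67.8 CPM (log2 ratio 1.05, from 0.82 to 1.27). Hsp90aa1 was at 1159 against 594 CPM (0.96, from 0.89 to 1.04) and Hsph1 at 76.4 against 46.4 CPM (0.72, from 0.41 to 1.02). The 5 constitutive members were 0.45 to 0.63 log2 units higher. In the adult library the ratios were smaller: 0.41 for Dnajb1, 0.28 for Hsp90aa1, 0.13 for Hsph1 with an interval from -0.35 to 0.57, and -0.02 for Hspe1. These droplets were deeper, with medians of 10127 against 5943 UMIs in the neonatal and 12691 against 6042.5 in the adult library.

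**Figure D2:**
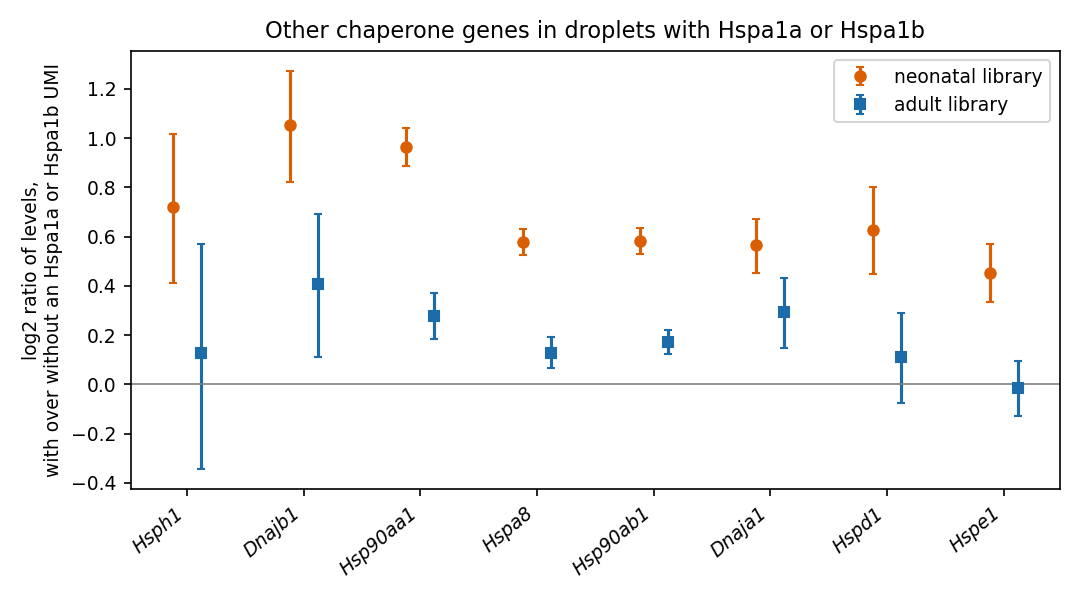
Log2 ratio of the level of each other chaperone gene in droplets with a UMI of Hspa1a or Hspa1b over droplets without, as circles for the neonatal and squares for the adult library, with exact 95% intervals. All 8 neonatal values lie above 0, the highest for Dnajb1 at 1.05, and the adult values run from -0.02 to 0.41.

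Within depth classes the summed inducible genes kept this direction in both libraries, while single members did not all do so. Among neonatal droplets of 2000 to 8000 UMIs, where median depths were 5511 and 5411.5, the other 3 inducible genes summed to 1241 CPM with and 688 CPM without inducible HSP70 (log2 ratio 0.85, from 0.68 to 1.02), and the constitutive list to 5004 and 3789 CPM (0.40, from 0.32 to 0.48). In adult droplets of that class the same ratios were 0.66 (0.42 to 0.89) and 0.14 (0.02 to 0.26). There, adult Hspe1 was lower with inducible HSP70 (-0.64, from -1.13 to -0.20), adult Hspd1 was at -0.40 (-1.24 to 0.33), and neonatal Hsph1 was at 0.25 (-0.68 to 1.04). Above 8000 UMIs the inducible ratio was 0.94 in neonatal and 0.23 in adult B cells, with adult Hsph1 at -0.02 and Hspa8 at 0.03. In that class the droplets with inducible HSP70 were still the deeper ones, with medians of 15942 against 11322 neonatal and 21304 against 12740 adult UMIs. Without the droplets carrying markers of other cells, the neonatal ratio over all depths was 0.98 for Dnajb1 and 0.91 for Hsp90aa1.

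Across single droplets the members' counts moved together only weakly, and more so in the neonatal library. Pearson correlations were computed over droplets thinned to 2000 UMIs, which share 1 library and 1 depth, and are given as descriptions. Their median over the 45 pairs of members was 0.070 in neonatal and 0.025 in adult B cells. Over all pairs of genes present in at least 5% of droplets, the median was close to 0 and the 99th percentile 0.059 and 0.047. These were 4432 neonatal and 4110 adult genes, and Hspa1a, Hspa1b and adult Hsph1 were too scarce to be among them. The pairs of members were not compared with gene pairs of like level. In the neonatal library 13 pairs of members exceeded 0.1, and in the adult library 6 did. The neonatal value was the higher one for 35 of the 45 pairs. Low counts can hold such values down, though the 2 scarcest members, Hspa1a and Hspa1b, reached 0.19 and 0.16 with each other. At this depth each member was found in a smaller share of adult droplets, as with Dnaja1 in 30.6% against 51.6%. The part of these lower levels in the difference between the libraries was not tested.

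The highest correlations joined abundant members. Pairs of like level were not compared, so this order does not show that the inducible genes were linked less. Hspa8 with Hsp90ab1 led in both libraries, at 0.29 in neonatal and 0.18 in adult B cells. Hsp90aa1, which is on the inducible list, kept company with the constitutive members in the neonatal library: its correlation was 0.24 with Hspa8, 0.23 with Hsp90ab1 and 0.17 with Dnaja1. In the adult library the same values were 0.07, 0.16 and 0.03. Hsp90ab1 with Hspe1 was alike at 0.16 and 0.17, and the 2 chaperonin genes, Hspd1 with Hspe1, reached 0.08 and 0.10. The median over the 10 constitutive pairs was 0.12 in neonatal and 0.08 in adult B cells, and that over the 10 inducible pairs 0.07 and 0.02.

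Among the scarce inducible genes, Hspa1a with Hspa1b reached 0.19 in neonatal and 0.16 in adult B cells, but from 4 and 2 thinned droplets that held both. Hsph1 with Dnajb1 had 0.09 and 0.01, with 37 neonatal and 14 adult droplets positive for both. Dnajb1 with Hsp90ab1 was at 0.04 in neonatal and -0.04 in adult B cells. UMIs of at least 3 of the 5 inducible genes were found in 37 of 2077 neonatal droplets (1.78%, from 1.26% to 2.45%) and in 10 of 3611 adult droplets (0.277%, from 0.133% to 0.509%). The product of the genes' own shares of droplets would give 17.7 and 8.18 droplets. None of either library had 4 or more. Without the droplets carrying markers of other cells the neonatal share was 1.12% and the adult share 0.308%. Without shared barcodes they were 1.98% and 0.280%. The droplets were thinned anew for each of these, so the shares differ by the random draw as well as by the droplets left out. The intervals do not cover that draw.

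**Figure D3:**
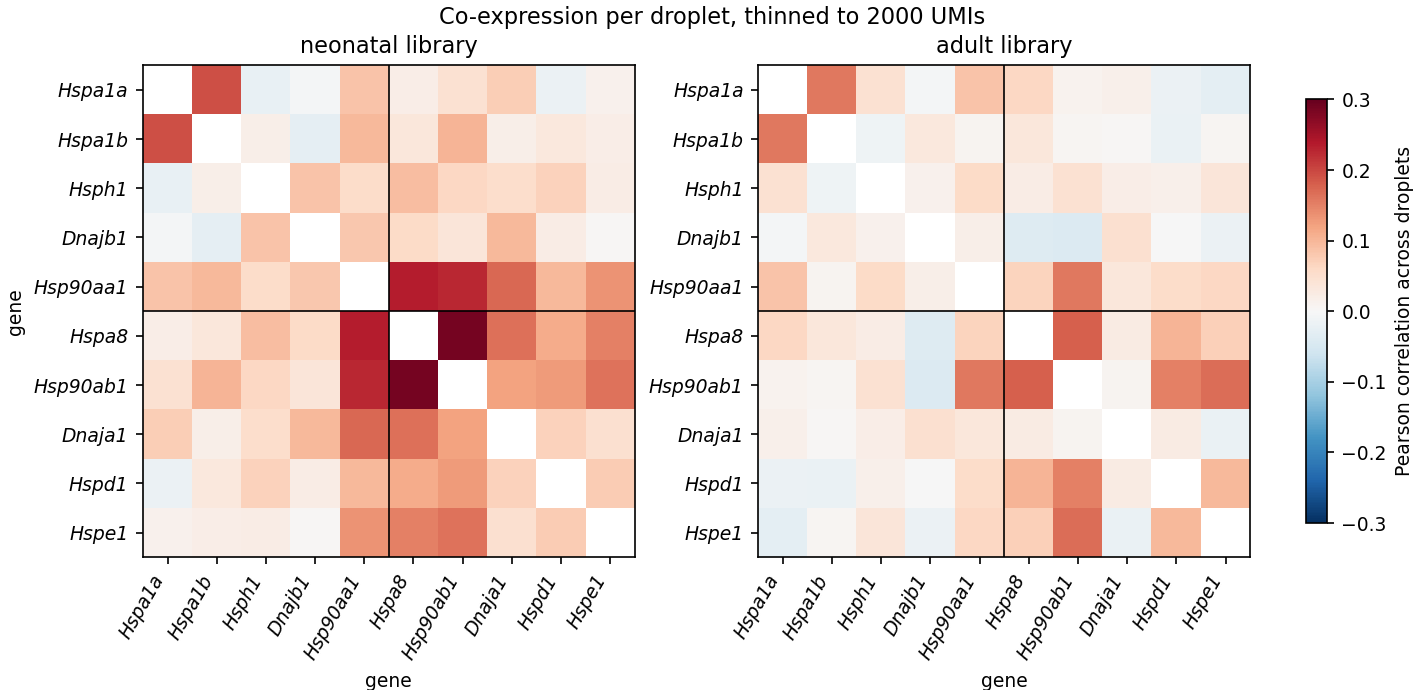
Pearson correlation of each pair of chaperone genes across droplets thinned to 2000 UMIs, for 2077 neonatal droplets on the left and 3611 adult droplets on the right, with the color scale in correlation units and the black lines dividing the inducible from the constitutive list. The darkest field joins Hspa8 and Hsp90ab1, at 0.29 in the neonatal library, and the same block is paler in the adult library, at 0.18.

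Among genes outside the list, the summed inducible members were most like Mat2a in neonatal B cells (correlation 0.12, methionine adenosyltransferase), followed by Crip1, Tagln2, Fos and Ubb at 0.10 to 0.11. Ubb encodes a polyubiquitin and Fos an immediate-early transcription factor. In adult B cells the nearest were Ptma at 0.13 (prothymosin alpha), Stmn1, Tuba1b, Jund and Klf2. None of the 5 genes was on both lists. Of the members themselves, Hspa8 reached 0.25 and Hsp90ab1 0.23 in the neonatal library, and 0.06 and 0.14 in the adult library. With the summed 14 immediate-early genes the correlation of the inducible list was 0.09 in neonatal and 0.12 in adult B cells, and that of the constitutive list 0.07 and 0.03.

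The tie to the number of UMIs in a droplet differed between the libraries and between the lists. Droplets were divided by UMI total into 4 depth groups of equal size within each library. In the neonatal library both lists were a little higher in the deepest than in the shallowest group: the inducible sum stood at 740, 742, 688 and 854 CPM from shallowest to deepest, and the constitutive sum at 3937, 3884, 3764 and 4543 CPM. The log2 ratio of the deepest over the shallowest group was 0.21 for each, against a median of -0.12 over all genes. The first 3 neonatal groups thus lay close together, with the gain in the last.

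In the adult library the summed lists parted, though not all single members went with their list. The constitutive sum stood higher with each group, at 2704, 2816, 2992 and 3726 CPM, a log2 ratio of 0.46 (0.43 to 0.49) where the median over all genes was -0.01. The inducible sum stood at 538, 520, 427 and 531 CPM, a ratio of -0.02 (-0.09 to 0.05). That sum is mostly Hsp90aa1, which had a ratio of 0.02 (-0.05 to 0.10). Among single members, Hsp90ab1 (0.57), Hspa8 (0.53), Hspd1 (0.44) and Hspe1 (0.32) were higher in the deepest adult group. Dnajb1 (-0.55, from -0.78 to -0.32) and Dnaja1 (-0.41, from -0.52 to -0.29) were lower, so both J-domain genes stood opposite to Hspa8. Adult Hspa1a was lower too (-1.34, from -2.28 to -0.32), on 14 UMIs in the shallowest and 33 in the deepest group. The intervals of adult Hspa1b and Hsph1 included 0. In the neonatal library Hspa1a was at 0.95 (0.16 to 1.84) and Hspa1b at 2.05 (1.02 to 3.29). Dnaja1 was also lower in the deepest neonatal group, at -0.17 (-0.27 to -0.06), while Dnajb1 there was at 0.28 (0.02 to 0.54). Without the 5% of droplets with most UMIs, the inducible ratio was 0.060 in neonatal and -0.11 in adult B cells, so the neonatal value leaned on the deepest droplets. Without shared barcodes it was 0.15 (0.06 to 0.23).

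**Figure D4:**
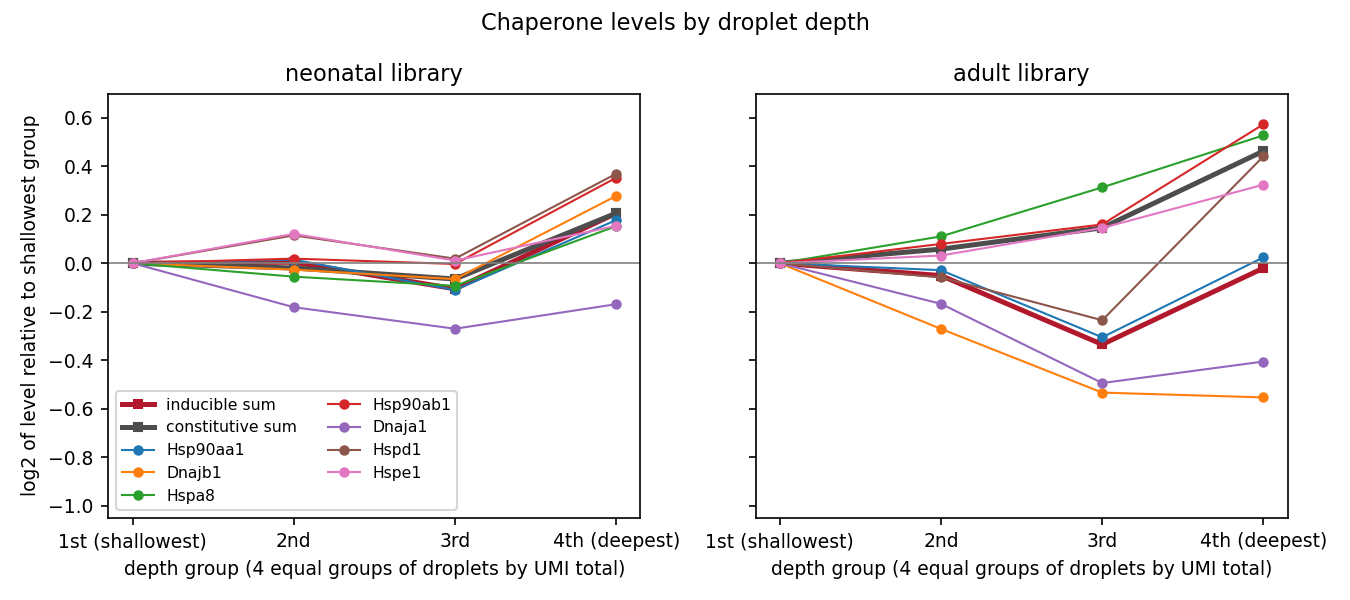
Level of the summed lists (squares) and of 7 members (circles) in 4 equal groups of droplets ordered by UMI total, as log2 of the level over that in the shallowest group, neonatal library on the left and adult on the right. Hspa1a, Hspa1b and Hsph1 are left out for their low counts. In the adult panel Hsp90ab1 ends at 0.57 and Dnajb1 at -0.55, and in the neonatal panel both sums end at 0.21.

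Because the libraries differ in how depth is spread (the upper quartile was 8204 UMIs in neonatal and 11137 in adult B cells), the ratio of the libraries was also taken among droplets of like depth. For droplets of 2000 to 4000, 4000 to 8000, 8000 to 16000 and at least 16000 UMIs, the log2 ratio of the inducible sum was -0.48, -0.52, -0.82 and -0.78, and that of the constitutive sum -0.49, -0.44, -0.37 and -0.37. Below 8000 UMIs the gap between the libraries was of like size for both lists, and above it the gap of the inducible list was the wider one. Among droplets of at least 16000 UMIs, only 75 of the 134 neonatal and 447 of the 490 adult droplets lay outside shared barcodes. The ratios of the sums and of Dnajb1 within depth classes were not retaken without shared barcodes. Hspa8 ran from -0.96 to -0.65, Dnaja1 from -0.89 to -1.17, Hsph1 from -1.37 to -1.28 and Hsp90aa1 from -0.46 to -0.77, each below 0 in all 4 classes. Dnajb1 ran from -0.14 (-0.73 to 0.50) among the shallowest to -1.29 (-1.48 to -1.09) among the deepest droplets. Hsp90ab1 stayed between -0.14 and -0.07, with intervals below 0 in every class but the shallowest, and Hspe1 between -0.12 and 0.04.

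Of the members, Hspa1a and Hspa1b had the library ratios that differed most between the depth classes, on few UMIs among the shallowest droplets. Among droplets of at least 16000 UMIs Hspa1a stood at 22.8 CPM in the neonatal and 1.58 CPM in the adult library. This was a log2 ratio of -3.85 (-4.60 to -3.16), and that of Hspa1b was -3.50 (-4.22 to -2.82). Without shared barcodes this class had 75 in place of 134 neonatal droplets, and the ratio of Hspa1a was -3.58 (-4.52 to -2.68). The 16 neonatal droplets with at least 2 macrophage markers, at a median of 15416 UMIs, held 43 of 142 neonatal Hspa1a UMIs. Over all depths, without droplets carrying markers of other cells, the Hspa1a ratio was -1.83 (-2.34 to -1.34). The part of such droplets in this depth class was not tested. Among droplets of 2000 to 4000 UMIs, Hspa1a had 1 neonatal UMI beside 13 adult UMIs, and the interval of its ratio ran from -1.58 to 6.57. The HSP70 gap was thus widest among the deepest droplets, and some neonatal droplets with many UMIs carried markers of other cells. Without the 5% of droplets with most UMIs, the gap was smaller but remained. The ratio was then -1.55 (-2.14 to -0.97) for Hspa1a and -1.90 (-2.43 to -1.39) for Hspa1b.

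**Figure D5:**
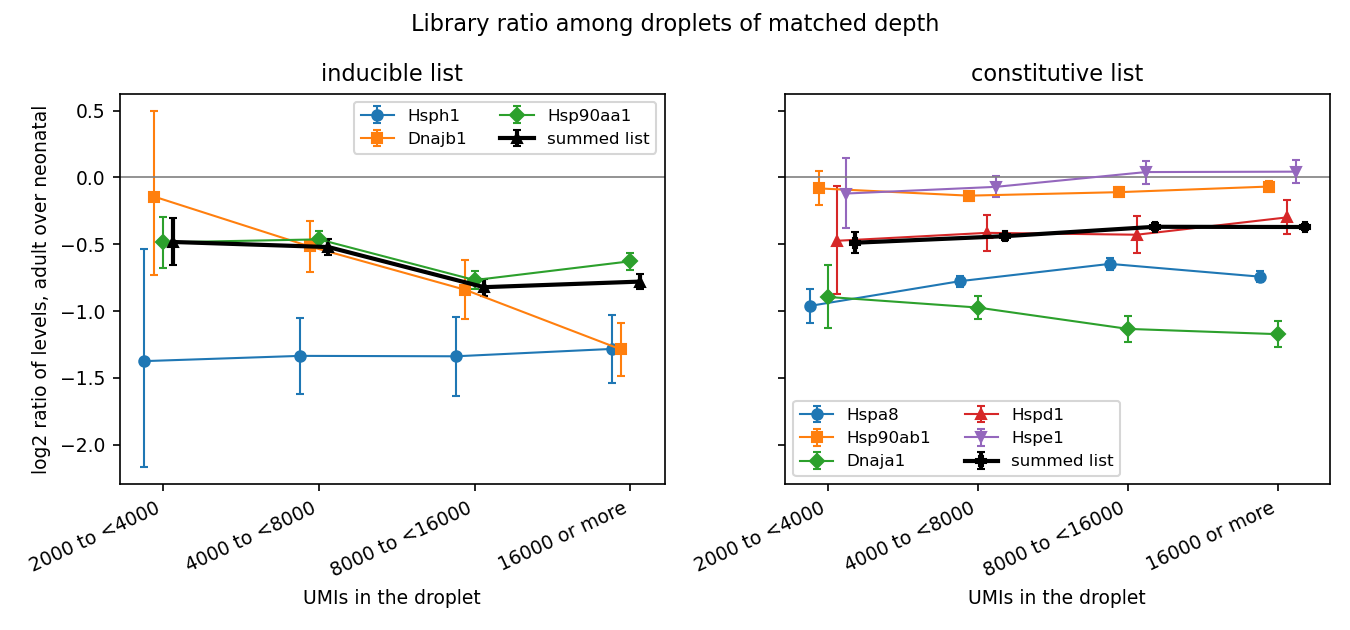
Log2 ratio of adult over neonatal levels within 4 classes of droplet depth, for the inducible list without Hspa1a and Hspa1b as single genes on the left and the constitutive list on the right, with exact 95% intervals and the summed list (all members) in black. Hspa8 and Dnaja1 lie at -0.65 or lower in every class, Hsp90ab1 lies between -0.14 and -0.07, and Dnajb1 runs from -0.14 to -1.29.

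Near the limits that define the droplets the values were as follows. Just inside the lower UMI limit, 19 neonatal droplets had an inducible sum of 811 CPM and 83 adult droplets one of 536 CPM, and just outside it 12 and 51 droplets had 277 and 477 CPM on 5 and 33 UMIs. Across the mitochondrial limit, the inducible sum was 761 CPM just inside and 836 CPM just outside in the neonatal library, and 469 and 562 CPM in the adult one. The median mitochondrial share was 7.41% and 6.96%, and only 60 neonatal and 156 adult droplets had 5% or less.

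Within the libraries the levels also went with other states of the cells. Droplets with a UMI of Mki67 or Top2a, which mark dividing cells, had 881 CPM of the inducible and 4812 CPM of the constitutive list in the neonatal library, beside 763 and 4050 CPM in the others. In the adult library the values were 606 and 4040 CPM beside 482 and 3176 CPM. Dividing droplets were deeper, with medians of 10179.5 and 14311.5 UMIs, and the part of depth in this was not tested. Neonatal droplets with Vpreb3 but no Cr2 or Fcer2a, a transitional pattern, had 715 CPM of the inducible list, and those with both Cr2 and Fcer2a, a mature follicular pattern, 775 CPM. In the adult library these were 468 and 513 CPM. The constitutive list stood at 4117 and 3927 CPM for the same neonatal patterns and at 2978 and 3418 CPM for the adult ones. Droplets of the follicular pattern were deeper, with medians of 7163 against 5275 neonatal and 9083 against 4213 adult UMIs, and the part of depth was not tested. In each pattern both lists were lower in the adult library. Neonatal droplets with Y-linked transcripts and no Xist had an inducible sum of 774 CPM and those with Xist alone 809 CPM. With male droplets alone in both libraries the log2 ratio of the inducible sum was -0.61.

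The rest of the folding machinery was read from lists chosen by function, with 12.3% of all genes at least 1.5-fold lower and 7.82% higher in the adult library as the background. Of 13 other HSP70 and J-domain genes with at least 50 UMIs, most of them cytosolic, none was 1.5-fold apart, and the median log2 ratio was -0.23. Of 15 co-chaperones of HSP70 and HSP90, 3 were at least 1.5-fold lower in the adult library and none higher, with a median of -0.32, a count that is read against the 12.3% of all genes. St13, which holds HSP70 to its client, was among them at 204 against 135 CPM (-0.59, from -0.66 to -0.53). The other two, Stip1 (-0.61), which links HSP70 to HSP90, and the scarce Bag2 (-1.12), were named after their values were seen. A list of heat shock factors and a protein that binds them had 3 genes with at least 50 UMIs. Of these, 1 was at least 1.5-fold lower in the adult library: Hsf2 at 6.58 against 3.70 CPM (-0.83, from -1.21 to -0.45). Heat shock factor 1, Hsf1, stood at 29.4 and 29.6 CPM. On a list named for small heat shock genes, 2 had at least 50 UMIs. Hspb1 was higher in the adult library at 1.82 against 0.366 CPM (2.31, from 1.11 to 3.81), on 6 neonatal and 63 adult UMIs. Hspb11, whose place on the list rests on its symbol, was within 1.5-fold. The TRiC chaperonin and prefoldin genes had a median of -0.10, and 1 of 11, the prefoldin subunit Pfdn5, was higher in the adult library at 749 against 451 CPM (0.73, from 0.69 to 0.77). The 7 mitochondrial chaperone and protease genes outside the list were all within 1.5-fold, with a median of -0.18.

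The chaperones of the endoplasmic reticulum had a median on the other side of 0. Of 12 genes, 2 were below a log2 ratio of 0 and the rest above, 2 of them at least 1.5-fold higher in the adult library, against 7.82% of all genes, and the median was 0.41. They were Sdf2l1 (1.25), named after its value was seen, and Pdia3. Pdia3, a disulfide isomerase, had 191 against 119 CPM (0.68, from 0.60 to 0.75). Hspa5, the HSP70 of the endoplasmic reticulum, had 437 against 390 CPM, a log2 ratio of 0.16, and Dnajb9 was at -0.50. Of 14 immediate-early genes, 5 were at least 1.5-fold lower in the adult library, beside 12.3% of all genes, all past 100 CPM: Atf3 (-1.09), Fosb (-0.99), Zfp36 (-0.79), Egr1 (-0.66) and Jund (-0.65). Their median was -0.21. The part of tissue digestion in any of these levels was not tested.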

How the data were processed

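For each library the authors deposited raw UMI counts per gene and barcode for all barcodes of the kit, without normalization or removal of empty droplets. The reads came from the Chromium Single Cell 3′ v3 chemistry and were aligned to mm10 and counted with Cell Ranger, version 3.0.2 per the file headers, while the study's methods name another version. Everything else was computed here with scipy 1.17.1, numpy 2.4.6, pandas 2.3.3 and matplotlib 3.10.9 under Python 3.11.15. The 10 members and all lists were chosen with earlier results of these data known.

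Droplets with at least 2000 gene UMIs, at most 10% mt- UMIs and a Cd79a UMI were kept, 2077 neonatal and 3611 adult. The authors' sort removed doublets, and no doublet caller was run, so doublets may remain. A further B cell marker is not reported here. Levels are summed UMIs per 1000000 (CPM). The ratio of 2 libraries has an exact conditional binomial interval, a level an exact Poisson and a share an exact Clopper-Pearson interval, at 95%. Over all droplets, with totals of 16403180 and 34623240 UMIs, only the 2 inducible HSP70 genes among the members have wide intervals. Scarce genes of other lists, such as Hspb1 and Bag2, and some members within depth classes have wide intervals too. With 1 library per age no p-value was computed. A fold of 1.5 was the rule for calling a gene apart, over genes with at least 50 UMIs in both libraries together. Random thinning to 2000 UMIs used a fixed seed. All 10 members are named. From other lists, genes of at least 100 CPM in either library past 1.5-fold are named, and Hsf1, Hsf2, Hspb1, Hspb11, Hspa5 and Dnajb9 were named after their values were seen. Genes like the inducible sum are the 5 with the highest correlation among those in at least 5% of droplets. The ratio calculation was tested on simulated data.

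Alternatives changed the UMI and mitochondrial limits, the Cd79a condition, the deepest droplets, shared barcodes, sex, scaling, thinning and free RNA. Leaving out droplets with markers of other cell types, the B cell check by 3 further markers, the comparison of droplets with and without inducible HSP70 within depth classes, and the inducible HSP70 values by droplet without shared barcodes, were added after the data were seen.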

Additional observations from a re-analysis of the deposited data

How the results depend on the processing

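No paired analysis was possible because each age is 1 library, and for the same reason no replicate could be left out. The log2 ratios of both summed lists stayed below 0 under all 14 alternatives. The inducible ratio was -0.49 with at most 5% mt- UMIs, -0.58 without the 5% of droplets with most UMIs, -0.58 without shared barcodes, -0.55 after thinning to 2000 UMIs, -0.58 as a mean over droplets and -0.49 with median-of-ratios scaling. The constitutive ratio was -0.30 with at least 4000 UMIs, -0.19 with at most 5% mt- UMIs, -0.29 without shared barcodes, -0.30 for male droplets, -0.41 after thinning, -0.40 as a mean over droplets and -0.18 with median-of-ratios scaling. That scaling shifts every ratio by the all-gene median of -0.13. The mitochondrial limit of 5% kept 60 neonatal and 156 adult droplets.

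The number of members at least 1.5-fold lower in the adult library ranged from 4, at a 2-fold threshold, to 6, and none was higher under any of 8 alternatives. The inducible share of chaperone UMIs was 12.9% in the adult library with at least 4000 UMIs, and 15.4% and 12.9% without the 1% of droplets with the largest inducible share. With Hsp90aa1 moved to the constitutive list it was 2.84% and 1.73%.

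The share of droplets with at least 3 inducible genes follows the depth: it was 0.289% and 0.0277% at 1000 UMIs and 5.79% and 1.53% at 4000 UMIs. In the neonatal library it was 1.17% for male droplets and 1.12% without droplets carrying markers of other cells. In the adult library it was 0.641% with at most 5% mt- UMIs. Droplets were thinned anew for each alternative, so these shares also differ by the random draw. The log2 ratio of deepest over shallowest droplets was 0.71 and 0.64 with at most 5% mt- UMIs and 0.060 and -0.11 without the 5% of droplets with most UMIs. Causes were not tested. Of the 10 members, 7 kept their direction under all 14 alternatives. Hsp90ab1, Hspd1 and Hspe1, all within 1.5-fold, did not. Low counts limit Hspa1a and Hspa1b most: their ratios were -4.39 and -4.34 with at most 5% mt- UMIs, on few droplets. They were -0.88 and -1.55 after thinning, a single random draw, and -1.54 and -1.82 as a mean over droplets.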
